A study of Mus musculus with 12 samples.

Results

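Fatty acid binding proteins are small cytoplasmic proteins that fold into a barrel and hold a fatty acid or another lipid inside it. They carry their cargo between membranes, lipid droplets, mitochondria and the nucleus, where several of them pass ligands to nuclear receptors, and each is known from its own tissues. The 8 family genes described here (Fabp1 to Fabp7 and Fabp9) were found by their symbols among 21156 genes measured on Clariom S arrays for mouse. Each had 1 probe set, and each probe set carried 1 symbol. Fabp12 and Pmp2, the remaining relatives of the family, are treated as neighbours and not as members.

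Whole mouse embryos were compared at 5 stages. Per the series' design text the early embryos were pooled, with the number of embryos per pool unstated: 2 arrays hold pronuclear embryos (E0.5), 2 hold 2-cell embryos (E1.5) and 2 hold morulae (E2.5). E10.5 and E16.5 have 3 arrays each, and each of those holds the whole body of 1 embryo. All embryos came from natural mating after superovulation, with the plug day as E0.5, and pronuclear embryos were washed and kept in KSOM, an embryo culture medium. Total RNA was extracted with QIAzol and 2 ng of it was labelled with a kit for small inputs. The labels name no strain, genotype or sex. They also do not say whether the arrays of a stage trace back to separate mothers, so p-values measure only the spread between these samples, and 1 spread is shared by pools and single embryos.

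Signals are on the log2 scale as deposited, and array medians lay between 6.19 and 6.59. They are not calibrated as folds of RNA. Olfactory and vomeronasal receptor genes (1404 measured) marked the background: the 95th percentile of their stage means was 5.85 for pronuclear, 6.36 for 2-cell, 6.10 for morula, 5.38 for E10.5 and 5.24 for E16.5 samples. A stage mean at or under this value is called within the receptor range, and a difference between such a stage and one above the range is written as a lower bound. This is a convention and not a measured limit of detection, since signals can also differ within the range, as for Fabp12 below. The median over all genes was 6.28, 6.30, 6.19, 6.27 and 6.58 in the same order of stages. It lay above the range at every stage but the 2-cell stage. Each early stage had most of its own markers above the range, and earlier markers stayed above it later on. Oocyte and zygote markers lay above it for 8 of 8 genes in pronuclear embryos, 8 in 2-cell embryos and 7 in morulae, with the log2 of their summed signal at 19.89 to 19.97, 18.82 to 18.86 and 9.94 to 10.92 in that order. 2-cell markers did so for 2 of 8 genes in pronuclear embryos, 8 in 2-cell embryos and 7 in morulae, with sums of 8.50 to 9.07, 17.56 to 17.73 and 15.82 to 16.07. In morulae Guca1a, with a mean of 15.88, made up most of this sum. The mean log2 signal of the 2-cell markers was 8.73 in morulae against 13.34 in 2-cell embryos. For morula markers the counts were 5, 4 and 8 of 9 in the same order of stages. At E16.5 10 of 10 liver markers and 10 of 10 heart and skeletal muscle markers lay above the range.

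Each stage had its own set of members above the receptor range. They numbered 4 of 8 for pronuclear embryos, 5 for 2-cell embryos, 5 for morulae, 3 for E10.5 embryos and 6 for E16.5 embryos. These counts rest on stage means. Among the members counted, the arrays of Fabp4 and Fabp6 lay on either side of the range in pronuclear embryos. So did those of Fabp4, Fabp7 and Fabp9 in morulae. The median of all genes also lay above the range at every stage but the 2-cell stage, so these counts alone do not set the family apart. Fabp5 lay above the range at every stage, and so did Fabp7, though in morulae by its mean alone. By stage mean, Fabp6 and Fabp9 were highest in 2-cell embryos, Fabp3 in morulae, and Fabp1, Fabp2, Fabp4, Fabp5 and Fabp7 at E16.5. All 8 members passed limma's F test across stages at an adjusted p of 0.05, with values from 6.89e-13 (Fabp2) to 2.38e-05 (Fabp6), and so did 78.9% of all genes. In the authors' deposited table the false discovery rates of the members ran from 7.61e-13 (Fabp2) to 2.51e-05 (Fabp6).

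**Figure D1:**
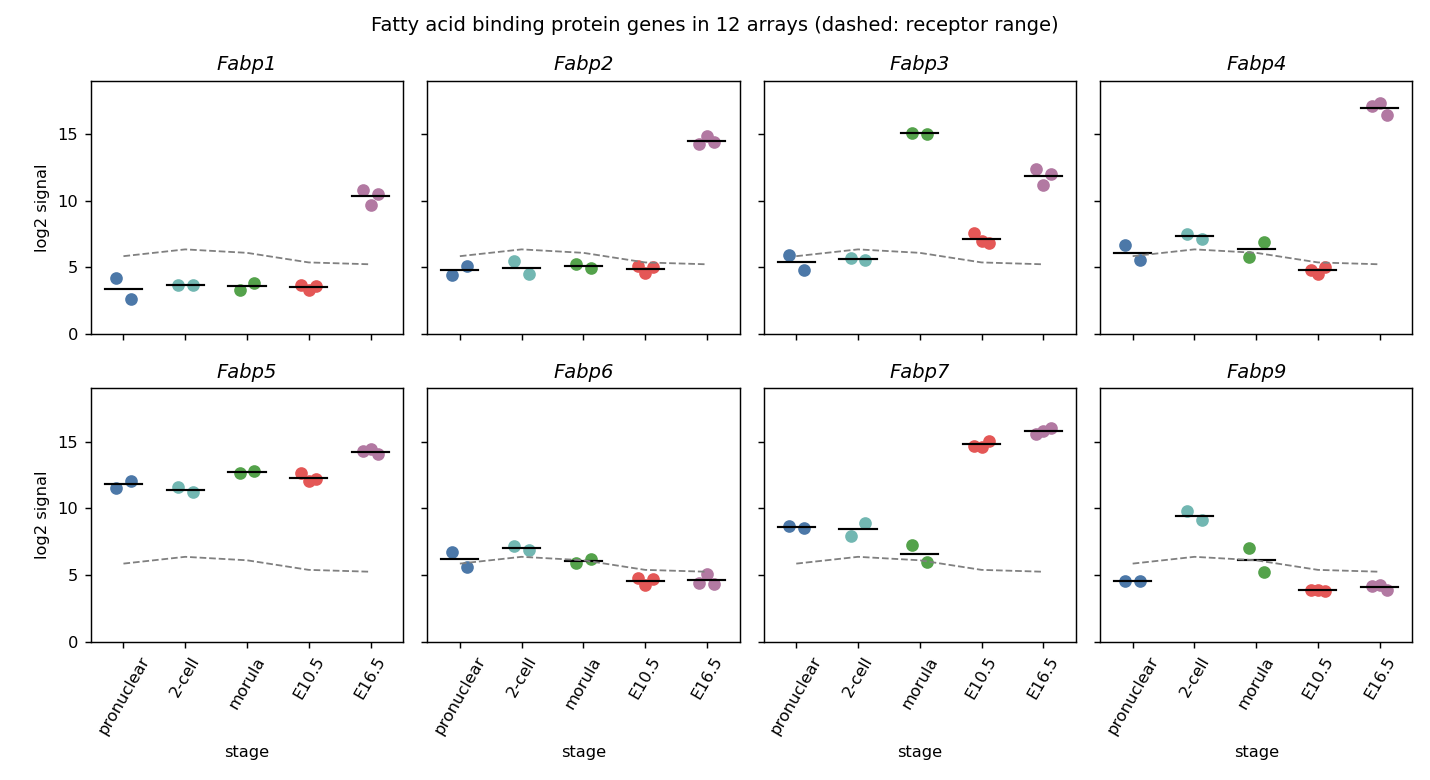
Log2 signal (y axis) of the 8 genes at the 5 stages (x axis). Points are arrays, black bars are stage means, and the dashed line is the 95th percentile of the receptor genes. Fabp9 stands highest at the 2-cell stage, Fabp3 in morulae, and Fabp1, Fabp2 and Fabp4 rise above the line by a wide margin at E16.5 alone.

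Fabp1 and Fabp2 are the carriers of the liver and the gut. Fabp1, abundant in hepatocytes and enterocytes, read 4.18 and 2.65 in pronuclear pools, 3.67 and 3.71 in 2-cell pools, 3.32 and 3.86 in morula pools, 3.72, 3.31 and 3.59 in E10.5 embryos, and 10.84, 9.68 and 10.49 in E16.5 embryos. The 3 late embryos stood far above the other 9 arrays, all of which lay within the receptor range. Its rise was at least 6.79 ± 0.37 at E16.5 over E10.5 (SE, adjusted p = 1.24e-09).

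Fabp2, the carrier of the small intestinal epithelium, read 4.47 and 5.08 in pronuclear pools, 5.47 and 4.49 in 2-cell pools, 5.26 and 4.95 in morula pools, 5.11, 4.62 and 5.04 in E10.5 embryos, and 14.28, 14.86 and 14.41 in E16.5 embryos. The groups before E16.5 overlapped one another. At E16.5 Fabp2 was higher than at E10.5 by at least 9.59 ± 0.30 (SE, adjusted p = 1.95e-12). Neither gene passed in any of the 6 pairs drawn from the earlier stages (adjusted p from 0.492 to 0.939).

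Markers of both organs moved with these rises. Liver markers lay above the receptor range for 10 of 10 genes at E16.5 and 8 of 10 at E10.5, and the log2 of their summed signal was 20.94 to 21.09 at E16.5 against 11.45 to 11.83 at E10.5. Intestine markers did so for 8 of 9 genes at E16.5 and 5 of 9 at E10.5, with sums of 16.85 to 16.98 at E16.5 against 9.10 to 9.42 at E10.5. Apoa4, an apolipoprotein of the gut and also of the liver, had a mean of 16.79 at E16.5 against 6.90 at E10.5 and made up most of the intestine sum, while Cdx1 stayed within the range at E16.5. In whole embryos more cells of a type and more RNA per cell cannot be told apart, and the part of these organs in the rises was not tested.

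Fabp1 and Fabp2 changed at the same step, so their start regions are shown, the 250 bases before the annotated start from RefSeq on GRCm38.p6. The start in RefSeq and the one in the deposited annotation differ for several members, Fabp1 and Fabp3 among them. Capitals mark the letters of the motifs named below.
Fabp1, chr6:71199629-71199878, plus strand: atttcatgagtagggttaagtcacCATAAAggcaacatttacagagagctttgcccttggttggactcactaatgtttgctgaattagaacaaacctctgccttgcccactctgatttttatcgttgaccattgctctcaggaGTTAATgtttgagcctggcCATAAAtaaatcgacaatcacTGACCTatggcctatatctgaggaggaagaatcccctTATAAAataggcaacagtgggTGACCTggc
Fabp2, chr3:122894822-122895071, plus strand: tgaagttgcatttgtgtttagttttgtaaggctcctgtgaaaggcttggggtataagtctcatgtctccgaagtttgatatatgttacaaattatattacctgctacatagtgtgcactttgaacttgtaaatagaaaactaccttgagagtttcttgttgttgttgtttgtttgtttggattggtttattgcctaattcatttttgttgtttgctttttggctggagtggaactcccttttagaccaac
Both windows were poor in G and C, at 42.8% in Fabp1 and 35.6% in Fabp2, against a median of 52.4% over 32536 promoter windows of that length. Fabp3 and Fabp7 also rose at E16.5 over E10.5, and their windows held 64.8% and 54.8%. The window of Fabp6, which did not rise there, held 54.8%. The window of Fabp1 held TATAAA on the plus strand at -30 to -25 from the start (in 7.55% of all windows), TTTATG (10.8%, both strands, known as a core of Cdx sites), GTTAAT (6.47%, both strands, known from Hnf1 sites) and AGGTCA (14.0%, both strands, the core that nuclear receptors bind). The window of Fabp2 held none of these letters, nor GGAATG (12.6%), ACAATG (10.5%), GGGCGG (33.0%) or a direct repeat of AGGTCA spaced by 1 base (0.0338%), which were also searched on both strands. TTTATG was also found in the window of Fabp6 (-111 to -106) and AGGTCA in that of Fabp7 (-171 to -166), so these letters were not particular to Fabp1. A match of letters is a description and not a binding site.

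Fabp3, the carrier of heart and skeletal muscle that feeds fatty acids to mitochondria, had 2 separate rises. It read 5.92 and 4.84 in pronuclear pools, 5.74 and 5.55 in 2-cell pools, 15.11 and 15.04 in morula pools, 7.60, 7.02 and 6.83 in E10.5 embryos, and 12.41, 11.20 and 12.02 in E16.5 embryos. Morulae were highest, E16.5 embryos followed, and no other stage reached either of them. Morulae exceeded 2-cell embryos by at least 9.43 ± 0.42 (SE, adjusted p = 2.13e-10). In E10.5 embryos the signal fell by 7.93 ± 0.38 relative to morulae (SE, adjusted p = 1.74e-10) and remained above the receptor range at 7.15 ± 0.40 (SD, n = 3). At E16.5 it rose by 4.73 ± 0.34 over E10.5 (SE, adjusted p = 3.33e-08). Even so, E16.5 embryos lay below morulae, by a difference of -3.20 ± 0.38 (SE, adjusted p = 3.27e-06).

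At the 2 rises of Fabp3 the muscle markers and the morula markers changed by different amounts. Among the heart and skeletal muscle markers 4 of 10 lay above the receptor range in morulae and 2 of 10 in 2-cell embryos, with summed signals of 9.16 to 9.72 in morulae against 9.02 to 9.12 in 2-cell embryos. The mean log2 signal of the muscle markers was 5.81 in morulae and 5.42 in 2-cell embryos. Myh7 and Nppa were among those within the range in morulae. Morula, trophectoderm and epithelium markers lay above it for 8 of 9 genes in morulae and 4 of 9 in 2-cell embryos, with sums of 17.30 to 17.39 in morulae against 14.91 to 14.94 in 2-cell embryos. At E16.5 the muscle markers were above the range for 10 of 10 genes, against 9 of 10 at E10.5, and their sums were 19.56 to 19.78 at E16.5 against 12.95 to 13.29 at E10.5. Myl1 and Acta1, with means of 18.81 and 17.76, made up most of the sums at E16.5. The means of Myh6 (7.29 against 9.16) and Nppa (10.12 against 10.38) were lower at E16.5 than at E10.5, and those of all other muscle markers were higher. The morula, trophectoderm and epithelium list had 4 of 9 genes above the range at E16.5 and 5 of 9 at E10.5. Its sums were 11.24 to 11.40 at E16.5 against 9.80 to 10.53 at E10.5. The part of muscle in the rise at E16.5 was not tested.

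The start region of Fabp3 is shown because it differs in composition from those of Fabp1 and Fabp2.
Fabp3, chr4:130308488-130308737, plus strand: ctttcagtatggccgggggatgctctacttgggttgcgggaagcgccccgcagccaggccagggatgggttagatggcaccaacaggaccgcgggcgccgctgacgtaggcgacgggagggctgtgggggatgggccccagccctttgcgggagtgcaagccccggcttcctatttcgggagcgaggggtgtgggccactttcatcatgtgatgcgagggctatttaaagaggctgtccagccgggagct
It was 64.8% G and C and held 17 CG dinucleotides, against 2 in the Fabp1 window, 1 in the Fabp2 window and a median of 6 over all windows. None of the 8 motifs searched was found in it, GGGCGG included, which 33.0% of all windows hold.

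Fabp4, the carrier of fat cells that is also known from macrophages and small vessels, made the largest change of the family. Its signals were 6.67 and 5.57 in pronuclear pools, 7.55 and 7.12 in 2-cell pools, 5.80 and 6.93 in morula pools, 4.83, 4.51 and 5.06 in E10.5 embryos, and 17.15, 17.32 and 16.45 in E16.5 embryos. The early pools lay near or somewhat above the receptor range, E10.5 embryos within it, and the E16.5 embryos far above it. At E16.5 Fabp4 was higher than at E10.5 by at least 12.18 ± 0.36 (SE, adjusted p = 1.17e-12).

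Smaller differences of Fabp4 among the early stages were less firm. The 2-cell pools exceeded the pronuclear pools by 1.22 ± 0.44 (SE, adjusted p = 0.0420), a call that was lost in 14 of 26 alternatives, such as without pronuclear replicate 2 (adjusted p = 0.372) and without 2-cell replicate 1 (0.195). Morulae differed from 2-cell embryos by -0.97 ± 0.44 (SE, adjusted p = 0.0956). In E10.5 embryos the signal fell by 1.57 ± 0.40 or more relative to morulae (SE, adjusted p = 0.00383, but 0.0886 without morula replicate 2).

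Of the cell types known for Fabp4, adipocyte markers lay above the receptor range for 7 of 9 genes at E16.5 and 0 of 9 at E10.5, with summed signals of 13.94 to 15.10 at E16.5 against 7.43 to 7.71 at E10.5. Lep and Adrb3 were the 2 within the range at E16.5. Macrophage markers were above it for 8 of 8 genes at E16.5 and 3 of 8 at E10.5 (sums of 12.77 to 13.14 at E16.5 against 8.82 to 9.10 at E10.5). For endothelium the counts were 8 of 8 at E16.5 and 7 of 8 at E10.5 (sums of 13.08 to 13.71 at E16.5 against 12.16 to 12.61 at E10.5). Their part in the rise of Fabp4 was not tested.

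Fabp5, the epidermal carrier, which is also known to deliver ligands to the receptor Ppard, was present throughout. The arrays read 11.53 and 12.08 in pronuclear pools, 11.58 and 11.23 in 2-cell pools, 12.65 and 12.81 in morula pools, 12.64, 12.07 and 12.19 in E10.5 embryos, and 14.27, 14.42 and 14.11 in E16.5 embryos. Only the E16.5 embryos stood clear of all other arrays. From low to high the stage means were 11.41 ± 0.25 in 2-cell embryos, 11.80 ± 0.39 in pronuclear embryos, 12.30 ± 0.30 at E10.5, 12.73 ± 0.12 in morulae and 14.27 ± 0.16 at E16.5 (SD, n = 2 or 3).

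Neighbours in this order did not pass for 2-cell against pronuclear embryos (adjusted p = 0.357), E10.5 against pronuclear embryos (0.150) or E10.5 against morulae (0.217). Morulae exceeded 2-cell embryos by 1.32 ± 0.31 (SE, adjusted p = 0.00247), and E16.5 embryos exceeded E10.5 embryos by 1.97 ± 0.25 (SE, adjusted p = 1.34e-05). Epidermal markers lay above the receptor range for 8 of 9 genes at E16.5 and 2 of 9 at E10.5, with sums of 18.23 to 18.82 at E16.5 against 9.23 to 9.39 at E10.5, and their part was not tested. Pseudogenes of Fabp3 and Fabp5 are annotated in RefSeq, and whether the probes tell them from the genes was not tested.

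Fabp6, which binds bile acids in the ileum, had no rise that passed the test at any step. It read 6.72 and 5.61 in pronuclear pools, 7.15 and 6.84 in 2-cell pools, 5.91 and 6.21 in morula pools, 4.76, 4.24 and 4.71 in E10.5 embryos, and 4.38, 5.09 and 4.29 in E16.5 embryos. The 3 early stages lay above the 2 late ones without overlap, and the late stages overlapped each other within the receptor range. In E10.5 embryos the signal fell by 1.49 ± 0.35 relative to morulae, with both stage means within the range (SE, adjusted p = 0.00209). The median of the receptor genes was also lower at E10.5, at 4.0 against 4.49 in morulae. Over 25 alternatives this difference of Fabp6 ran from -1.76 to -1.01, the smallest with arrays centred on the receptor median. Early and late arrays carry different dates, so date and stage cannot be told apart in this fall. Differences of 0.83 ± 0.38 between 2-cell and pronuclear embryos (SE, adjusted p = 0.112) and of -0.93 ± 0.38 between morulae and 2-cell embryos (SE, adjusted p = 0.0663) did not pass, although the second passed in 5 of 26 alternatives, such as cyclic loess (adjusted p = 0.0349). Fabp6, a gut carrier like Fabp1 and Fabp2, differed by 0.02 ± 0.31 between E16.5 and E10.5 (SE, adjusted p = 0.979), and whether this differs from the changes of the other genes was not tested.

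Fabp7, the brain carrier known as a marker of radial glia, was low in morulae and high after implantation. Its signals were 8.70 and 8.49 in pronuclear pools, 7.92 and 8.93 in 2-cell pools, 7.26 and 5.95 in morula pools, 14.69, 14.61 and 15.09 in E10.5 embryos, and 15.59, 15.80 and 16.06 in E16.5 embryos. Each embryo after implantation stood far above each early pool. In morulae the signal fell by 1.82 ± 0.42 relative to 2-cell embryos (SE, adjusted p = 0.00225). At E10.5 Fabp7 was higher than in morulae by 8.19 ± 0.38 (SE, adjusted p = 1.12e-10). The difference of E16.5 over E10.5 was 1.02 ± 0.34 (SE, adjusted p = 0.0264). This call was lost in 6 of 25 alternatives, which were a threshold of 0.01, quantile normalization (adjusted p = 0.0624), and the fits without E10.5 replicate 1 (0.0809), E10.5 replicate 2 (0.0924), E16.5 replicate 2 (0.0542) or E16.5 replicate 3 (0.0939).

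Neural progenitor markers lay above the receptor range for 9 of 9 genes at E10.5 and 3 of 9 in morulae, with sums of 15.94 to 16.09 at E10.5 against 9.66 to 9.81 in morulae. At E16.5 the count was again 9 of 9 and the sums were 16.18 to 16.41. Vim made up most of the sums at both late stages, with means of 15.75 at E10.5 and 16.06 at E16.5. The mean log2 signal over the list was 10.4 at E10.5 and 9.50 at E16.5. Single genes moved in both directions, and Sox2 had means of 11.73 at E10.5 and 6.84 at E16.5. How far neural tissue accounts for the signal was not tested.

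Fabp9, known as a lipid-binding protein of the sperm head, was above the receptor range in 2-cell embryos and, by its mean alone, in morulae. It read 4.57 and 4.53 in pronuclear pools, 9.82 and 9.10 in 2-cell pools, 7.05 and 5.22 in morula pools, 3.89, 3.90 and 3.80 in E10.5 embryos, and 4.15, 4.24 and 3.84 in E16.5 embryos. Both 2-cell pools exceeded all other arrays, and the morula pools lay on either side of the range. 2-cell embryos exceeded pronuclear embryos by at least 4.91 ± 0.45 (SE, adjusted p = 5.38e-07). In morulae Fabp9 fell by 3.32 ± 0.45 relative to 2-cell embryos (SE, adjusted p = 2.12e-05), and at E10.5 it fell by 2.28 ± 0.41 or more relative to morulae (SE, adjusted p = 2.19e-04). E16.5 and E10.5 embryos overlapped, with a difference of 0.22 ± 0.37 (SE, adjusted p = 0.709).

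Of the other testis and sperm markers, 1 of 8 lay above the receptor range in 2-cell embryos and 1 of 8 in pronuclear embryos, the protamine gene Prm2 in each case. Their summed signals were 8.44 to 8.81 in 2-cell embryos against 9.54 to 10.70 in pronuclear embryos, the opposite direction to Fabp9. The mean of Prm2 was 8.01 in 2-cell embryos against 9.82 in pronuclear embryos.

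Between 2-cell and pronuclear embryos 2 of 8 members rose (Fabp4, Fabp9) and 0 fell, where 35.6% of all genes passed, 15.6% upward and 20.0% downward. Between morulae and 2-cell embryos 2 rose (Fabp3, Fabp5) and 2 fell (Fabp7, Fabp9), where 40.0% of all genes passed, 20.0% in each direction. At E10.5 against morulae 1 rose (Fabp7) and 4 fell (Fabp3, Fabp4, Fabp6, Fabp9), where 51.9% of all genes passed, 25.2% upward and 26.6% downward. At E16.5 against E10.5 6 of 8 rose (all but Fabp6 and Fabp9) and 0 fell, where 37.8% of all genes passed, 17.5% upward and 20.3% downward. In this last comparison the median difference was 3.35 over the 8 members and -0.08 over all genes. The earlier medians were 0.27 over the members and -0.03 over all genes for 2-cell against pronuclear embryos, -0.52 and 0.11 for morulae against 2-cell embryos, and -0.96 and -0.16 for E10.5 embryos against morulae.

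**Figure D2:**
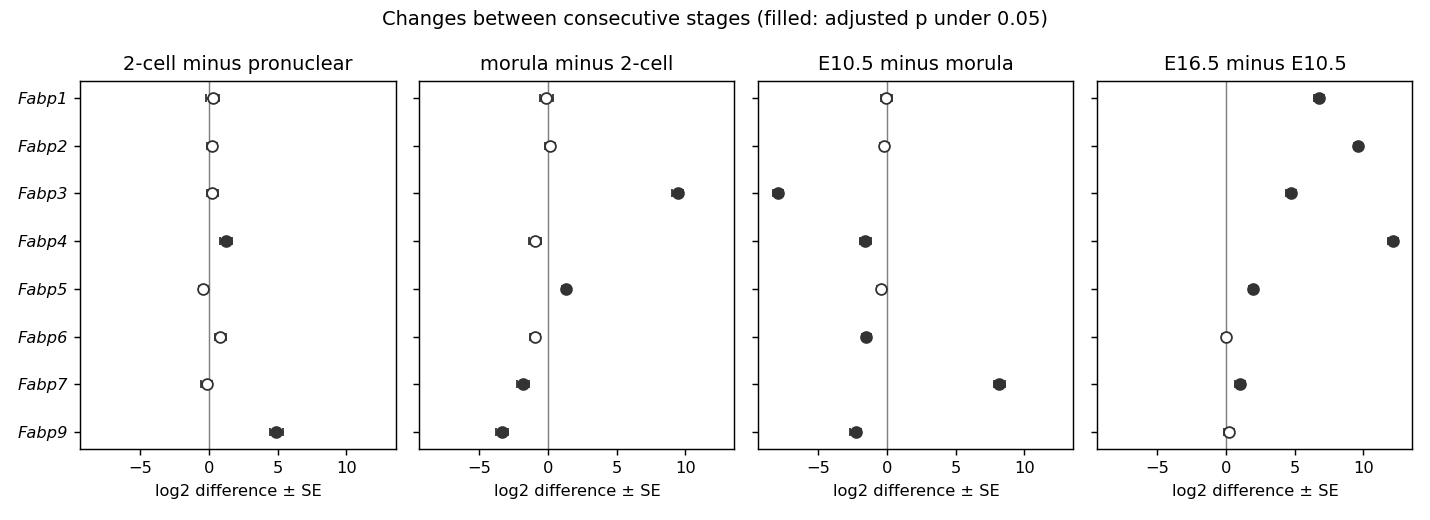
Log2 difference with its standard error (x axis) for each gene (y axis) in the 4 comparisons of consecutive stages. Filled points passed an adjusted p of 0.05. Fabp3 at the morula stage (9.43), Fabp7 at E10.5 (8.19) and Fabp4 at E16.5 (12.18) had the largest differences among the members in their comparisons.

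The array names of the 3 early stages carry 1 date and those of the 2 late stages another. In the comparison of E10.5 embryos with morulae the date and the stage therefore cannot be told apart, and the same holds for the other pairs of an early and a late stage. The other consecutive comparisons lie within a date. When the fit used only the 6 early arrays, an alternative chosen after seeing the data, the difference of Fabp9 between 2-cell and pronuclear embryos was 4.91 ± 0.56 (SE, adjusted p = 3.56e-04). That of Fabp3 between morulae and 2-cell embryos was 9.43 ± 0.39 (SE, adjusted p = 2.20e-06).

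Pairs of stages that are not consecutive served to order the levels. The share of all genes that passed was 47.7% for morulae against pronuclear embryos, 54.2% and 59.1% for E10.5 and E16.5 against pronuclear embryos, 54.7% and 59.0% for E10.5 and E16.5 against 2-cell embryos, and 57.9% for E16.5 embryos against morulae. The members that passed in these pairs numbered, in the same order, 4, 4, 7, 6, 8 and 8 of 8. Fabp9 in morulae exceeded pronuclear embryos by at least 1.59 ± 0.45 (SE, adjusted p = 0.00810, but 0.164 without morula replicate 1), and Fabp7 in morulae fell by 1.99 ± 0.42 relative to pronuclear embryos (SE, adjusted p = 8.71e-04). E16.5 embryos exceeded pronuclear embryos by at least 6.50 ± 0.38 for Fabp3 (SE, adjusted p = 7.53e-10) and by 7.22 ± 0.38 for Fabp7 (SE, adjusted p = 2.01e-10). For Fabp5 the difference between the same stages was 2.47 ± 0.28 (SE, adjusted p = 1.33e-06).

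The deposited annotation places each gene on mm10, first to last base. Fabp5 (chromosome 3, 10012548 to 10016610, plus strand), Fabp9 (chromosome 3, 10193624 to 10197283, minus strand) and Fabp4 (chromosome 3, 10204328 to 10208576, minus strand) lie in 1 cluster with Pmp2 and Fabp12, over 288636 bases. Fabp2 lies apart on the same chromosome (122895072 to 122899506, plus strand). The remaining members are Fabp1 (chromosome 6, 71199827 to 71205023, plus strand), Fabp3 (chromosome 4, 130308595 to 130315463, plus strand), Fabp6 (chromosome 11, 43596040 to 43601562, minus strand) and Fabp7 (chromosome 10, 57784881 to 57788451, plus strand).

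The 5 genes of the cluster did not share a stage pattern, although Fabp9 and Fabp4 are adjacent on the same strand. Fabp9 had its highest stage mean in 2-cell embryos (9.46 ± 0.51, SD, n = 2), and Fabp4 at E16.5 (16.97 ± 0.46, SD, n = 3). Fabp12 read 5.48 and 5.98 in morula pools, against 3.15 and 2.92 in 2-cell pools. It rose by 2.70 ± 0.28 between these stages (SE, adjusted p = 1.46e-06), with both means within the receptor range. Pmp2, the carrier of peripheral myelin, stayed within the range at all 5 stages, with means from 3.39 in pronuclear embryos to 4.43 in morulae. Beyond the cluster on the distal side, Chmp4c, of the membrane-remodelling ESCRT machinery, had a mean of 11.18 in morulae against 6.03 in 2-cell embryos. Zfand1 had 9.024 against 5.832. The genes between these and the cluster changed less, with 6.471 against 5.875 for Impa1 and 3.599 against 3.776 for Slc10a5.

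**Figure D3:**
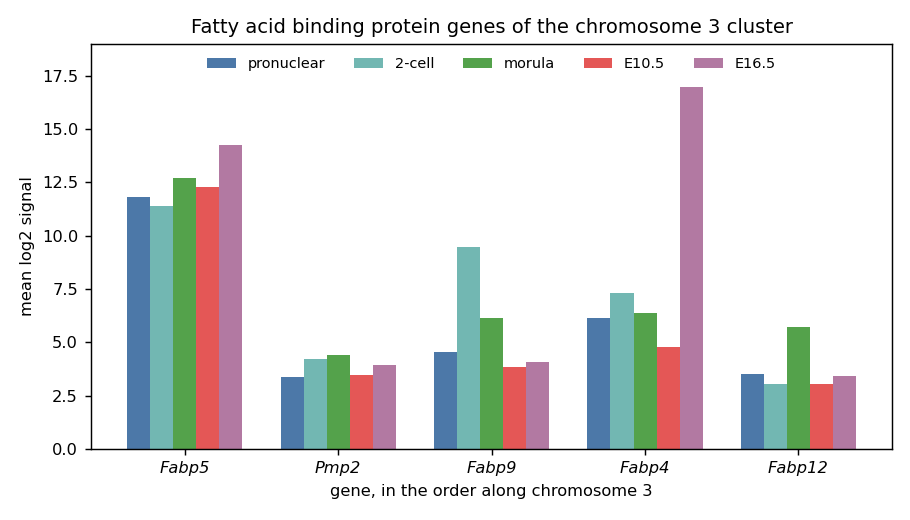
Mean log2 signal (y axis) of the 5 cluster genes in their order along chromosome 3 (x axis), with 1 bar per stage. Fabp9 peaks at the 2-cell stage (9.46), Fabp12 in morulae (5.73) and Fabp4 at E16.5 (16.97), while Fabp5 stays above 11 throughout. Bars compare stages of a gene, not genes with each other.

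Other genes with the most similar signals over the 12 arrays were sought among those with a stage mean over 7. The correlations describe 5 groups of arrays and carry no test. For Fabp9 they were Usp17le (Pearson's r = 0.982), Gm8300 (0.980) and Gm21762 (0.978), and for Fabp6 Zscan4a (0.960), Ube2d3 (0.957) and Gm5955 (0.955). Fabp3 was most like Hexa, a lysosomal hexosaminidase (0.982), Ndufb4, of respiratory complex I (0.980), and Spint2, a protease inhibitor (0.979). For Fabp7 the genes were Gpm6b, a glycoprotein of neural membranes (0.992), Cd81 (0.991) and Ankfy1 (0.991). Fabp5 was followed by Gltp, a glycolipid transfer protein (0.979), Eps8l2 (0.973) and Acadvl, a dehydrogenase of fatty acid oxidation (0.971).

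For the 3 members that were high at E16.5 alone the genes were Tceal7 (0.997), the amylase gene Amy2a1 (0.995) and Dpt (0.992) for Fabp1, the epidermal genes Hrnr (0.997) and Krt1 (0.996) with Serpina1d (0.995) for Fabp2, and Hdc (0.993), Apoh (0.991) and Lgals2 (0.989) for Fabp4.

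Genes that supply, burn or store fatty acids were read from 5 lists, of which Pparg, Cidea, Plin1 and Cidec are also adipocyte markers above and Hnf4a is a liver marker. At E16.5 against E10.5, 17 of 19 measured fatty acid oxidation genes rose and 0 fell, with a median difference of 2.61, and 15 of 17 genes of lipid droplets and triglycerides rose and 0 fell, with a median of 2.46 (all genes: 37.8% passed, median -0.08). Acaa2, the thiolase of mitochondria, rose by 5.40 ± 0.23 and the dehydrogenase gene Acadl by 5.19 ± 0.29 (SE, adjusted p at most 1.88e-09). Cidea, a lipid droplet protein, rose by at least 5.62 ± 0.37, and Pnpla2, the triglyceride lipase, rose by 4.64 ± 0.28 (SE, adjusted p at most 1.25e-08). These rises stood in the same comparison as those of 6 of the 8 family members.

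At this step 17.5% of all genes rose and 20.3% fell. Of the fatty acid uptake and activation genes 8 of 14 rose and 0 fell, among them the scavenger receptor gene Cd36, by at least 7.18 ± 0.29, and the acyl-CoA synthetase gene Acsl1, by 6.51 ± 0.33 (SE, adjusted p no higher than 5.16e-10). Among nuclear receptors and coactivators of lipid genes 8 of 10 rose and 0 fell. Pparg, the receptor of fat cell differentiation, rose by at least 6.19 ± 0.38 (SE, adjusted p = 4.61e-09) and Rxrg by at least 3.17 ± 0.32 (SE, adjusted p = 1.18e-06). Fatty acid synthesis and desaturation genes had 3 of 11 that rose and 6 that fell. Elovl1, an elongase, rose by 2.76 ± 0.30 and Elovl7 by at least 2.62 ± 0.27, while Elovl6 fell by 2.10 ± 0.28 and the fatty acid synthase gene Fasn fell by 1.48 ± 0.25 (SE, adjusted p at most 2.18e-04).

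At the step where Fabp3 rose, 10 of 19 oxidation genes were higher in morulae than in 2-cell embryos and 1 was lower, Eci1 (median 0.88, against 0.11 over all genes, of which 20.0% rose and 20.0% fell). Hadh, of the third step of the oxidation cycle, rose by 6.21 ± 0.31 and Acadl by 4.66 ± 0.36 (SE, adjusted p at most 6.37e-08). Lipid droplet and triglyceride genes rose for 8 of 17 and fell for 2, with Agpat2, an acyltransferase of triglyceride synthesis, up by 6.19 ± 0.35 (SE, adjusted p = 2.22e-09). Cd36, which imports fatty acids, fell by at least 4.19 ± 0.36 (SE, adjusted p = 2.06e-07), 1 of 5 uptake genes that fell against 1 that rose (Acsl6). Synthesis genes rose for 6 of 11 and fell for 1, the desaturase gene Fads2.

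At E10.5 against morulae, where Fabp3 fell and Fabp7 rose, synthesis and desaturation genes rose for 7 of 11 and fell for 2 (all genes: 25.2% rose, 26.6% fell). Fads2 rose by 8.50 ± 0.34 and Fads1 by 5.10 ± 0.35 (SE, adjusted p at most 7.57e-09), desaturases of polyunsaturated fatty acids. Oxidation genes rose for 6 of 19 and fell for 7, and over the alternatives run 3 to 7 rose and 6 to 9 fell. Among those that fell was Cpt1a, the gate of fatty acid entry into mitochondria, which fell by at least 4.29 ± 0.36 (SE, adjusted p = 7.97e-08). Of 17 lipid droplet and triglyceride genes 1 rose and 7 fell, and Agpat2 fell by 7.26 ± 0.32 (SE, adjusted p = 6.08e-11). Uptake genes rose for 4 of 14 and fell for 3, with 3 to 5 up and 1 to 5 down over the alternatives. Receptors and coactivators rose for 2 of 10 and fell for 2.

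Between 2-cell and pronuclear embryos, where Fabp9 rose, no list had most of its genes pass in 1 direction (all genes: 15.6% rose, 20.0% fell). Oxidation genes rose for 4 of 19 and fell for 3, uptake genes rose for 1 of 14 and fell for 2, and lipid droplet and triglyceride genes rose for 3 of 17 and fell for 7. The elongase gene Elovl6 was the largest of 2 rises among 11 synthesis genes, by 6.48 ± 0.34 (SE, adjusted p = 1.81e-09). Pparg fell by 3.55 ± 0.46 (SE, adjusted p = 1.94e-05), 1 of 3 falls against 2 rises among the receptors and coactivators. At the morula step this group had 3 rises and 2 falls.

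**Figure D4:**
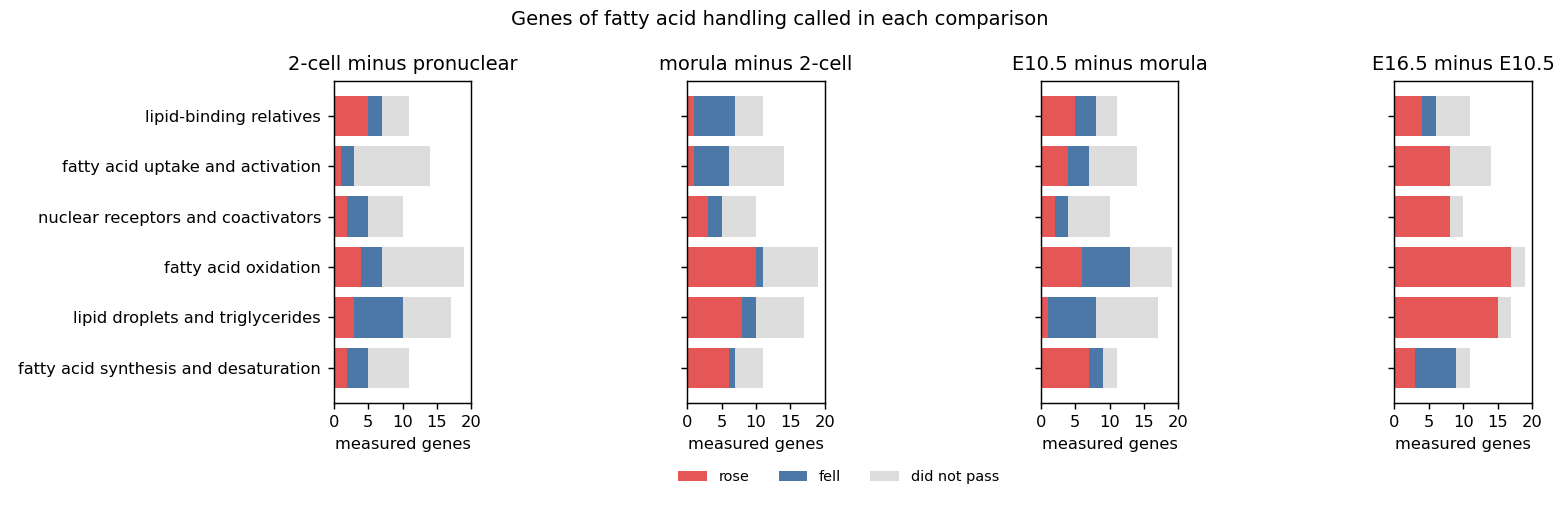
Number of measured genes (x axis) of each list (y axis) that rose, fell or did not pass an adjusted p of 0.05 in the 4 comparisons of consecutive stages. At E16.5 against E10.5 no gene of the oxidation or lipid droplet list fell, and 17 and 15 rose.

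The relatives that carry retinoids and acyl-CoA had patterns of their own. Rbp7, a retinol carrier, rose by at least 5.36 ± 0.34 in 2-cell embryos over pronuclear embryos (SE, adjusted p = 1.44e-08) and fell by 4.49 ± 0.34 in morulae relative to 2-cell embryos (SE, adjusted p = 5.72e-08), the same steps and directions as Fabp9. Rbp2, the retinol carrier of the small intestine, rose at E16.5 by at least 5.45 ± 0.32 over E10.5 (SE, adjusted p = 2.82e-09), the step at which Fabp1 and Fabp2 rose. Crabp1 and Crabp2, carriers of retinoic acid, fell there by 5.73 ± 0.23 and 6.57 ± 0.30 (SE, adjusted p no higher than 1.25e-10). At E10.5 the same genes had risen over morulae by at least 10.08 ± 0.26 and by 8.57 ± 0.33 (SE, adjusted p no higher than 1.66e-11). Crabp2 had also been high in pronuclear embryos, with a mean of 16.35 against 15.51 at E10.5. It differed by -4.905 ± 0.362 between 2-cell and pronuclear embryos and by -4.514 ± 0.362 between morulae and 2-cell embryos (SE, adjusted p at most 9.33e-08). Of the 11 relatives 5 rose and 2 fell between 2-cell and pronuclear embryos (35.6% of all genes passed), 1 rose and 6 fell between morulae and 2-cell embryos (40.0%), 5 rose and 3 fell at E10.5 against morulae (51.9%), and 4 rose and 2 fell at E16.5 against E10.5 (37.8%).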

How the data were processed

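The authors deposited 1 log2 signal per probe set and array, labelled SST-RMA in the column names (signal space transformation before robust averaging of probes), with annotation na36 on mm10, per the file headers. Transcriptome Analysis Console is named in the submitters' processing notes without its version. Their table also has an F test (p-value and false discovery rate) and a T or F flag for each stage (other), per the file headers, and the flags were not used. They are T at all 5 stages for Fabp3, Fabp4 and Fabp6, and T in pronuclear embryos for Fabp2 and Fabp9. Some of these stage means lay within the receptor range, so lower bounds rest on that range and not on the flags. No member above the range was flagged F. The other deposited table repeats the log2 signals (0 probe sets differ).

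Of 22206 probe sets, 21367 had 1 symbol, and the brightest was kept for each of 21156 genes. limma 3.58.1 in R 4.3.3 (lmFit, eBayes) fitted the 5 stages over all 12 arrays. Tests were two-sided, p-values were adjusted by Benjamini-Hochberg over every gene, and the threshold was 0.05. The fit was tested on simulated data. Arrays have no counting depth, so their number limits the precision. Same-numbered arrays of different stages did not deviate together (21 correlations from -0.11 to 0.046), so numbers were not taken as pairs. Between stages of 2 arrays each, the values for replicates 1 and 2 are equal by construction. The 21 correlations are therefore not separate checks. matplotlib 3.10.9 (Python 3.11.15) drew the figures.

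The members and lists were chosen with earlier results of these data known. Named are all members and genes among the 2 largest rises and falls that passed in each list and comparison. Also named are the 3 genes most correlated with each member among those whose highest stage mean is over 7. Single genes of the marker lists are named too, including those shared with the fatty acid lists. Genes described from these, the neighbours on chromosome 3, the stretches shown and the motifs were picked after values were seen. All 8 members matched RefSeq symbols, and promoter windows of GRCm38.p6 were read for Fabp1, Fabp2, Fabp3, Fabp6 and Fabp7. Alternatives covered variance moderation, array weights, normalization, centring, dim genes, probe set choice, thresholds, the arrays in the fit and a replicate block.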

Additional observations from a re-analysis of the deposited data

How the results depend on the processing

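The numbers of all genes called, and of list genes called in total, stayed within 1.5 times their value in each alternative run, while counts in 1 direction of single lists moved further, as for the oxidation genes that rose at E10.5 against morulae (3 to 7). Not run were the F test with a minimum of 1 log2 unit and in fits of fewer stages. Members called between 2-cell and pronuclear embryos numbered 1, not 2, with array weights, quantile normalization, receptor centring, an adjusted p of 0.01, only the stages compared, or only the 6 early arrays (chosen after seeing the data), and 1 to 3 without single arrays. Fabp4 was the call lost, and Fabp6 passed without pronuclear replicate 1 (adjusted p = 0.0211). With the replicate number as a block that count was also 1 (Fabp4, adjusted p = 0.0634), and no other member count moved by over 1.5 times. Members called between morulae and pronuclear embryos numbered 2, not 4, with only those stages in the fit. The cause was not tested.

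The differences that changed sign were all uncalled before and after. Under array weights Fabp6 was -0.16 (E16.5 minus E10.5). Quantile normalization gave 0.22 for Fabp1 and 0.060 for Fabp2 (E10.5 minus morula), 0.017 for Fabp1 and 0.11 for Fabp2 (E10.5 minus 2-cell), and -0.12 for Fabp6 (E16.5 minus E10.5). Cyclic loess gave 0.14 for Fabp1 (E10.5 minus morula), -0.20 for Fabp6 (E16.5 minus E10.5) and -0.045 for Fabp2 (E10.5 minus pronuclear). Receptor centring gave 0.44 for Fabp1, 0.30 for Fabp2 and 0.052 for Fabp5 (E10.5 minus morula), -0.0846 for Fabp1 and -0.00985 for Fabp4 (morula minus pronuclear), and 0.25 for Fabp1 and 0.34 for Fabp2 (E10.5 minus 2-cell). Upper-quartile centring gave 0.029 for Fabp7 (2-cell minus pronuclear), 0.11 for Fabp1 (morula minus 2-cell) and 0.30 for Fabp6 (morula minus pronuclear). Without single arrays, 2-cell minus pronuclear ranged from -0.49 to 1.04 for Fabp1, -0.28 to 0.70 for Fabp2, -0.28 to 0.80 for Fabp3 and -0.67 to 0.34 for Fabp7. Morula minus 2-cell ranged from -0.38 to 0.17 for Fabp1 and -0.37 to 0.61 for Fabp2. Morula minus pronuclear ranged from -0.59 to 0.94 for Fabp1, -0.32 to 0.81 for Fabp4 and -0.66 to 0.45 for Fabp6. E10.5 minus pronuclear ranged from -0.64 to 0.90 for Fabp1 and -0.16 to 0.46 for Fabp2. E10.5 minus 2-cell ranged from -0.55 to 0.43 for Fabp2, E10.5 minus morula from -0.32 to 0.23 for Fabp1, and E16.5 minus E10.5 from -0.24 to 0.16 for Fabp6.

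Receptor centring moved the median of all genes by 0.48 for E10.5 minus morula, where 67.5% of calls were upward, against 48.6% as deposited. Upper-quartile centring moved it by -0.27 there.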
